A study of Homo sapiens with 8 samples.

Results

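MHC class I antigen presentation is described here through 9 genes. They encode the light chain (B2M), 4 heavy chains (HLA-B, HLA-C, HLA-E and HLA-F), the peptide transporter and its docking protein (TAP1, TAP2 and TAPBP) and a transactivator of the pathway (NLRC5). The genes were chosen by name, and each was measured through the array rows that list its symbol and no other. They hold 204 of the 354600 array rows with 1 symbol, and all 9 are among the 18732 genes tested. The cells were NTera2/D1, a human embryonal carcinoma line that differentiates when given retinoic acid (RA). They carried small interfering RNA against LacZ, a bacterial gene, as the control (siLacZ), or against RNF20 (siRNF20), a ubiquitin ligase for histone H2B. Each of these received the solvent DMSO or 10 µM RA, for 72 h, which gives 4 groups: DMSO siLacZ, RA siLacZ, DMSO siRNF20 and RA siRNF20. Each group had 2 arrays, from biological duplicates by the labels, numbered GF117 and GF120. All groups share 1 cell line and a transfected small interfering RNA, so untransfected cells and other lines are outside the comparison.

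Class I molecules show peptides from inside the cell to CD8 T cells and natural killer cells. The proteasome cuts proteins into peptides, TAP1 and TAP2 pump these into the endoplasmic reticulum, and TAPBP (tapasin) holds an empty heavy chain and B2M beside the pump until a peptide is bound. Embryonal carcinoma cells and other pluripotent cells are known for little class I at the surface, and interferon raises it through the transcription factors of the interferon pathway and through NLRC5.

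Promoter sequences are shown for B2M, the only member called, for TAP2, which differed from it in the motifs found, and for HLA-B and HLA-C, whose near-identical rows bear on the results. RefSeq promoters (GRCh38.p14, the 250 bases before the gene start, given 5′ to 3′ on the strand of the gene) were matched by symbol for 7 of the 9 members. B2M lies at chr15:44711267-44711516 on the plus strand, TAP2 at chr6:32838740-32838989, HLA-B at chr6:31357180-31357429 and HLA-C at chr6:31272093-31272342, the last 3 on the minus strand. Capitals mark matches, on either strand, to a pair of GAAA blocks with any 2 bases between them (the core shared by sites for interferon-regulated factors; TTTC blocks on the other strand), to TGACG (the core of sites for CREB and ATF factors; CGTCA) and to CCAAT (the box bound by NF-Y; ATTGG).
B2M: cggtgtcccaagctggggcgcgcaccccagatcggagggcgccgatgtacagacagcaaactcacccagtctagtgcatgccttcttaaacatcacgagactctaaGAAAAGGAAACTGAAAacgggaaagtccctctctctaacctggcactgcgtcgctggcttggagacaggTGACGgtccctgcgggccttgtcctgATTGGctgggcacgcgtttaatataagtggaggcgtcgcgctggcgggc
TAP2: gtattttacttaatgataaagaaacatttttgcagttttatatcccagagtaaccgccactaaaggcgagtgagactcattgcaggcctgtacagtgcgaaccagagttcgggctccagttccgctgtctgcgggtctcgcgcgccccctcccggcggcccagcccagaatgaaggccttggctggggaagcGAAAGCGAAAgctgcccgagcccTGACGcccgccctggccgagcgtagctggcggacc
HLA-B: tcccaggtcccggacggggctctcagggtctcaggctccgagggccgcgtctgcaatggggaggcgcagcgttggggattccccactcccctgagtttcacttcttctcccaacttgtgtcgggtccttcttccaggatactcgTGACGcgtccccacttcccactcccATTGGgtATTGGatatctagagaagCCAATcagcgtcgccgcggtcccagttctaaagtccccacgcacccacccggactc
HLA-C: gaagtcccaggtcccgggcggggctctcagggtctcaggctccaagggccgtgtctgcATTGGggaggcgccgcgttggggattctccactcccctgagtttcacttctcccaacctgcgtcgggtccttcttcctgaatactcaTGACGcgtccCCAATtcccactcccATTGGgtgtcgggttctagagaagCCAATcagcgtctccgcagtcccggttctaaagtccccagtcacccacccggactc
The GAAA pair was found in 5 of the 7 promoters (B2M, HLA-F, TAP1, TAP2 and TAPBP), against 3.02% of all 35116 promoters searched in the same way. In B2M the match is doubled, with copies that overlap and begin 144 and 138 bases before the start, while TAP2 has 1 copy that begins 58 bases before it. The HLA-B and HLA-C windows hold no letters that match it. TGACG was found in B2M, TAP2, HLA-B and HLA-C (4 of 7, against 21.2% of all promoters). It begins 106 bases before the start in HLA-B and 105 in HLA-C, and these neighbouring genes also share a CCAAT match 56 bases before it. CCAAT was found in 5 of the 7 (B2M, HLA-B, HLA-C, HLA-F and TAP1), against 32.0%. A match describes letters and shows no binding, and no array value bears on it.

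One array stood apart. Over the 7 other arrays the correlations of gene values lay between 0.908 and 0.974, but the GF117 RA siLacZ array correlated with them at only 0.0780 to 0.185. Results are therefore given first without it, with RA siLacZ as 1 array that is assumed to vary like the other groups, and with all 8 arrays where a call is lost or a sign turns with RA in siLacZ cells. RNF20 itself read 8.24 and 8.09 in DMSO siLacZ (log2 intensity, GF117 then GF120), 8.10 in RA siLacZ (GF120), 6.48 and 5.98 in DMSO siRNF20 and 6.27 and 5.89 in RA siRNF20. It lay lower in every siRNF20 array, by -1.94 ± 0.23 (SE) in DMSO and -2.02 ± 0.29 in RA, although limma's adjusted p was 0.237 and 0.110. The left-out array, labelled as a control, read 6.08. It also read low for other genes, such as B2M (2.92), so its RNF20 value is not interpreted. The 10 embryonal carcinoma markers had array medians of 9.77 to 9.84 in DMSO and 7.50 to 8.33 in RA, with 6 of 10 called lower with RA in siLacZ cells and 5 in siRNF20 cells. All 5 measured RA-response markers were called higher in both. Leukocyte markers had array medians of 5.50 to 6.04 with none of 8 called. Those of fibroblasts and endothelium lay between 5.26 and 5.69, with 1 of 7 (CDH5) called higher with RA in both. Single markers were brighter than these medians over the arrays fitted, such as CD14 (6.85 to 7.34) among leukocyte markers and PDGFRB (6.28 to 6.97) among the others. Whether the shift in cell state plays a part in the class I values was not tested, and in bulk RNA fewer cells with a transcript and less transcript per cell cannot be told apart.

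B2M, the light chain of class I molecules, was the one member that passed the test, and it fell with RA in control cells. In control cells B2M read 7.48 and 7.42 with DMSO and 6.39 with RA (log2 intensity). It read 7.80 and 8.16 in DMSO siRNF20 and 7.62 and 7.79 in RA siRNF20. The RA siLacZ array was thus the lowest of the 7, DMSO siLacZ came next, and the siRNF20 groups were highest and met at 7.79 against 7.80. In siLacZ cells the RA difference was -1.06 (SE 0.24, 95% interval -1.60 to -0.52, limma's adjusted p = 0.0414). In siRNF20 cells it was -0.28 (SE 0.20, interval -0.72 to 0.16, adjusted p = 0.602), and the difference between these responses was 0.78 (SE 0.31, interval 0.09 to 1.48) with an adjusted p of 0.999. Intervals here are those of single genes, with no adjustment for the number of genes. RA responses are therefore not shown to differ between the knockdowns.

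**Figure D1:**
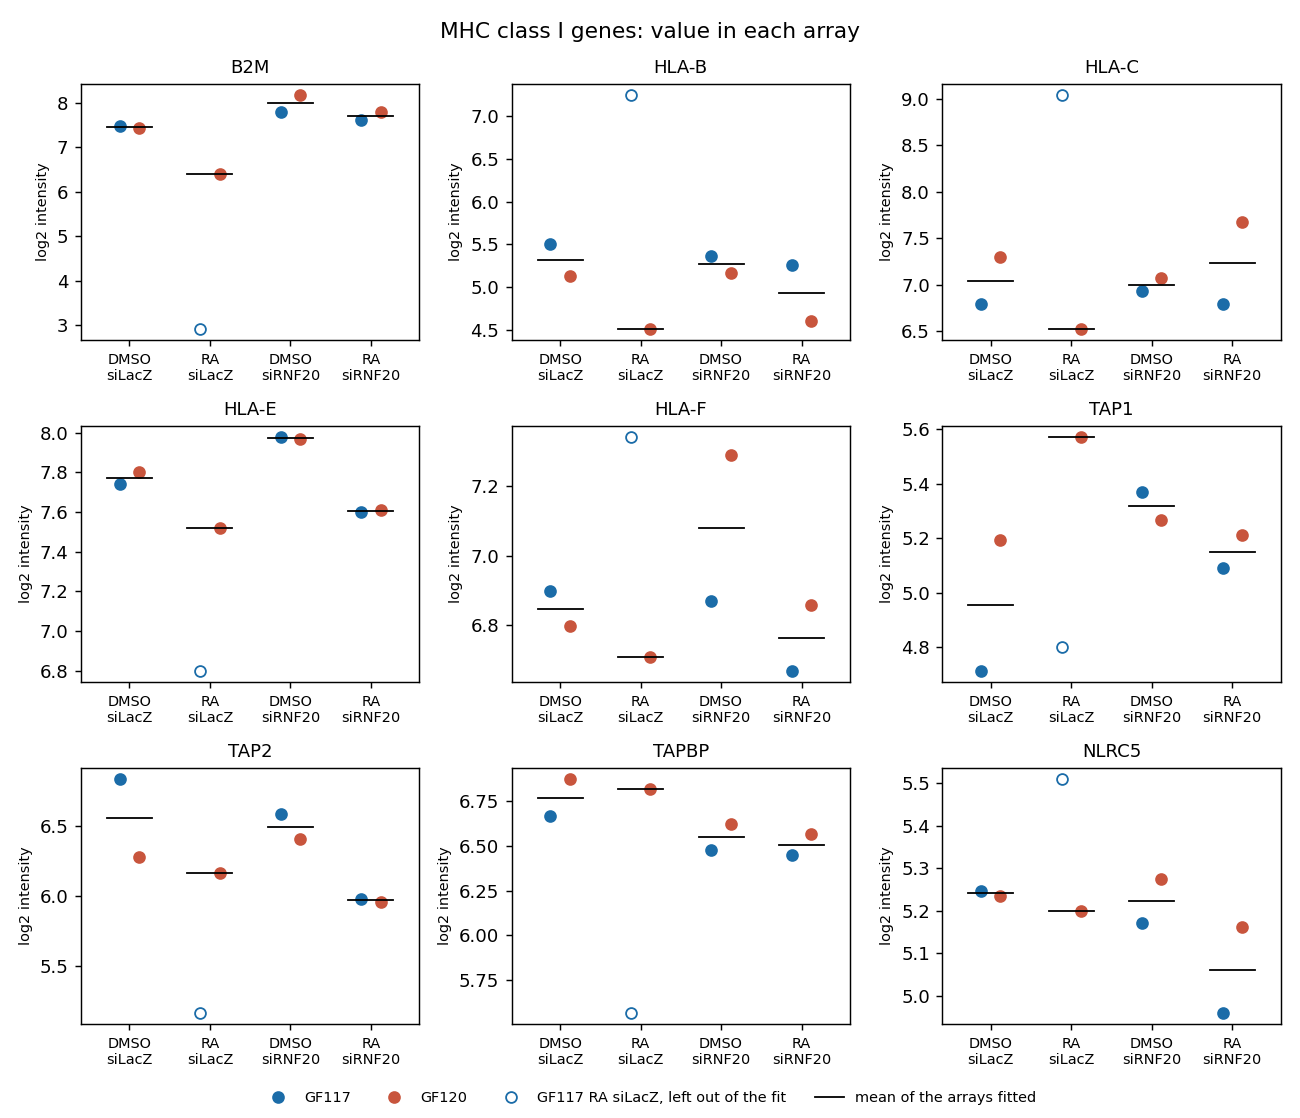
Log2 intensity (y axis) of each of the 9 MHC class I genes in each array, by group (x axis); blue points are GF117, red points GF120, the open point is the left-out GF117 RA siLacZ array and black lines are means of the arrays fitted. B2M is lowest in RA siLacZ (6.39) among the arrays fitted, and the open point lies far from the others for B2M (2.92), HLA-B (7.24) and HLA-C (9.03).

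The B2M call is a narrow one. It rests on 1 array with RA, and each of the DMSO siLacZ arrays matters to it: without GF117 of that group the difference was -1.04 with an adjusted p of 0.171, and without GF120 it was -1.09 with 0.130. Without either DMSO siRNF20 array, which lends only its spread, the adjusted p was 0.0612 (GF117) or 0.0621 (GF120). With all 8 arrays the difference became -2.80 (SE 1.00) and the adjusted p 0.440, where the left-out array read 2.92. Taking the mean of the rows gave -0.62 (adjusted p = 0.163), a median polish -0.54 (0.181), no filter on dim rows -0.94 (0.379), an offset of 16 before the logarithm -0.93 (0.0504) and a fit with no intensity trend -1.06 (0.0897). The call was kept with a stricter filter on dim rows (-1.29, adjusted p = 0.0223), with quantile normalization (0.0418), without either RA siRNF20 array (0.0298 and 0.0332) and with only the arrays compared (0.0367). With the GF number as a replicate block, which the labels do not describe as a pairing, 7 arrays gave -1.14 (adjusted p = 0.00449). Within the GF120 arrays alone the difference was -1.04 in siLacZ and -0.38 in siRNF20 cells, and within GF117 it was -0.18 in siRNF20 cells.

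The 16 B2M rows kept, which are probe sets along the gene, differed among themselves. In siLacZ cells 13 of 16 had a lower value with RA and 12 lay below both DMSO arrays, with row differences from -1.96 to 0.58 and a median of -0.54. The gene value, which takes the median row in each array before the difference, gave the larger -1.06. In the order of the row numbers, with a split made after the values were seen, the first 6 rows had a median difference of -0.54 (-0.92 to -0.17) and the last 5 one of -1.26 (-1.96 to -0.92). Between them lay 5 dim rows (row means of 4.45 to 5.12) with a median of 0.27 (-0.47 to 0.58). The dim rows and the bright rows of the gene thus differed in the sign of their medians. Over all rows kept on the array 50.4% lay lower with RA in siLacZ cells. In siRNF20 cells all 16 rows lay lower with RA, by small amounts (-0.57 to -0.05), and the medians of the 3 stretches, -0.20, -0.43 and -0.21, were near each other. Of 3241 genes with 16 to 22 rows, 4.29% had every row lower in that comparison.

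**Figure D2:**
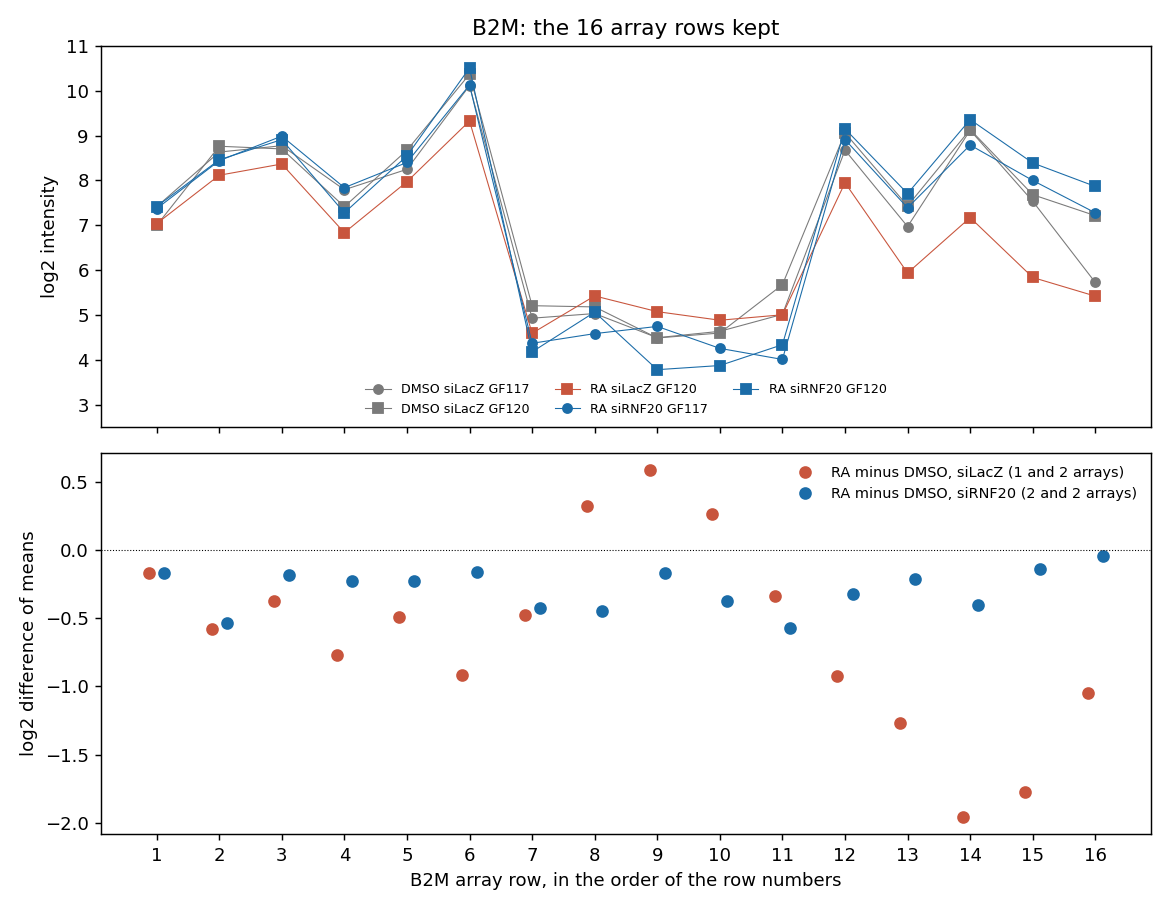
The 16 B2M rows in the order of their row numbers (x axis): above, log2 intensity in the DMSO siLacZ (grey), RA siLacZ (red) and RA siRNF20 (blue) arrays, with circles for GF117 and squares for GF120; below, each row's log2 difference of means, RA minus DMSO, in siLacZ (red) and siRNF20 cells (blue). The red points are lowest over the last 5 rows (median -1.26) and reach above 0 in the dim middle rows, while all blue points lie below 0.

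The heavy chains HLA-B and HLA-C present peptides to CD8 T cells and engage receptors of natural killer cells. HLA-B was measured by a single row, dim for this array (row mean 5.08, where the median of annotated rows was 6.13). It read 5.51 and 5.13 in DMSO siLacZ, 4.51 in RA siLacZ, 5.36 and 5.17 in DMSO siRNF20 and 5.26 and 4.61 in RA siRNF20. The RA siLacZ value was the lowest and the RA siRNF20 arrays overlapped their controls. The RA difference was -0.80 (SE 0.38, interval -1.65 to 0.04, adjusted p = 0.339) in siLacZ and -0.33 (SE 0.31, adjusted p = 0.726) in siRNF20 cells. With all 8 arrays the first turned to 0.56, where the left-out array read 7.24.

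HLA-C had 3 rows kept of 5, and its value was 6.79 and 7.30 in DMSO siLacZ, 6.53 in RA siLacZ, 6.94 and 7.07 in DMSO siRNF20 and 6.80 and 7.67 in RA siRNF20. The RA siRNF20 arrays were the farthest apart and lay on either side of their DMSO arrays. In siLacZ cells the RA difference was -0.51 (SE 0.36, interval -1.33 to 0.30, adjusted p = 0.565), and in siRNF20 cells it was 0.23 (SE 0.30, interval -0.44 to 0.90, adjusted p = 0.824). Both signs turned with no filter on dim rows, to 0.31 and -0.21, and the first was 1.13 with all 8 arrays, so no direction is given for HLA-C.

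Most rows of these near-identical genes list more than 1 symbol and were left out of the tests. A further 22 rows list HLA-B together with HLA-C, with or without MICA. Their median log2 intensity was 9.26 and 9.45 in DMSO siLacZ, 9.74 in RA siLacZ, 9.39 and 9.53 in DMSO siRNF20 and 9.42 and 9.51 in RA siRNF20. The RA siLacZ array was the highest here, opposite to the single HLA-B row, where it was the lowest. Of the 22 rows, 18 lay higher with RA in siLacZ cells and 4 lower, with a median difference of 0.19. The HLA-C rows kept were split in that comparison, 2 lower and 1 higher, with a median of -0.09. In siRNF20 cells the median difference was 0.04. Another 7 rows list HLA-B with MICA, a stress-induced relative of the class I chains, and their median RA differences were 0.05 in siLacZ and 0.10 in siRNF20 cells. Rows shared by these genes thus did not show the lower HLA-B value, and neither set of rows was tested.

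**Figure D3:**
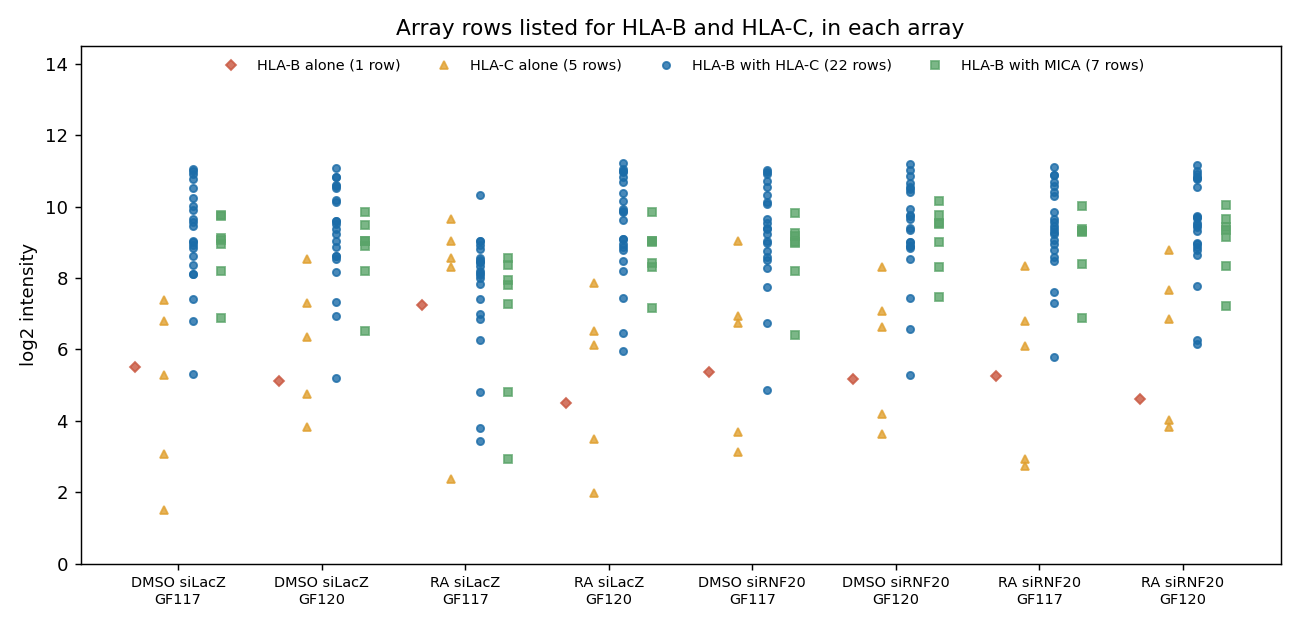
Log2 intensity (y axis) of every row listed for HLA-B alone (red), HLA-C alone (orange, 5 rows), HLA-B with HLA-C (blue, 22 rows) and HLA-B with MICA (green, 7 rows) in each of the 8 arrays (x axis). The blue rows have medians of 9.26 to 9.74 in the arrays fitted and 8.17 in the GF117 RA siLacZ array, where the red and orange rows lie mostly above those of the other arrays.

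HLA-E, a less variable class I chain whose ligands include signal peptides of other class I chains and which engages NKG2A on natural killer cells, was covered by 22 rows kept of 23. Its log2 intensity was 7.74 and 7.80 in DMSO siLacZ, 7.52 in RA siLacZ, 7.98 and 7.97 in DMSO siRNF20 and 7.60 and 7.61 in RA siRNF20. Duplicates lay close together, and the RA arrays lay below their DMSO arrays in both knockdowns. Even so, neither difference passed: -0.25 (SE 0.21, interval -0.71 to 0.21, adjusted p = 0.639) in siLacZ and -0.37 (SE 0.17, interval -0.74 to 0.01, adjusted p = 0.344) in siRNF20 cells. In siRNF20 cells 22 of 22 rows lay lower with RA, by -0.87 to -0.00 with a median of -0.32, and in siLacZ cells 15 of 22 did. Over all rows kept on the array 52.5% lay lower with RA in siRNF20 cells.

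HLA-F, another chain of low variability, had 17 rows kept of 22. Its value was 6.90 and 6.80 in DMSO siLacZ, 6.71 in RA siLacZ, 6.87 and 7.29 in DMSO siRNF20 and 6.67 and 6.86 in RA siRNF20. RA differences were -0.14 (SE 0.26, adjusted p = 0.874) and -0.31 (SE 0.21, adjusted p = 0.586), and the second turned to 0.28 with the stricter filter on dim rows. The first was 0.18 with all 8 arrays. Its rows were split, with 9 of 17 lower and 8 higher in siLacZ cells and 8 lower and 9 higher in siRNF20 cells.

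TAP1 and TAP2 form the peptide pump as a pair, and neither passed the test. TAP1, with 14 rows kept of which 2 were brighter than the median annotated row, read 4.71 and 5.19 in DMSO siLacZ, 5.57 in RA siLacZ, 5.37 and 5.27 in DMSO siRNF20 and 5.09 and 5.21 in RA siRNF20. It was the only member whose RA siLacZ value lay above both controls. The difference was 0.62 (SE 0.33, interval -0.12 to 1.36, adjusted p = 0.413), with 10 of 14 rows higher. In siRNF20 cells it was -0.17 (SE 0.27, interval -0.77 to 0.44, adjusted p = 0.865). The difference between these responses was -0.78 (SE 0.43, interval -1.74 to 0.17, adjusted p = 0.999).

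TAP2, with 18 rows kept of 22, read 6.83 and 6.27 in DMSO siLacZ, 6.16 in RA siLacZ, 6.58 and 6.40 in DMSO siRNF20 and 5.98 and 5.96 in RA siRNF20. In each knockdown its RA side lay below the DMSO side, as for B2M, HLA-E, HLA-F and NLRC5. Within a knockdown the RA side lay wholly lower for 41.9% of all genes in siLacZ cells and 24.8% in siRNF20 cells. In siLacZ cells the RA difference was -0.39 (SE 0.29, interval -1.05 to 0.26, adjusted p = 0.592), less than the gap of its DMSO duplicates. In siRNF20 cells it was -0.52 (SE 0.24, interval -1.06 to 0.01, adjusted p = 0.340). There 18 of 18 rows lay lower with RA (-1.56 to -0.10, median -0.55). The single HLA-B row lay lower too (-0.33). Among members with more than 1 row kept, B2M, HLA-E and TAP2 had every row lower in this comparison. With no filter on dim rows the shares were 95.2%, 95.7% and 95.5% of their rows.

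TAPBP showed little. Its log2 intensity was 6.67 and 6.87 in DMSO siLacZ, 6.82 in RA siLacZ, 6.48 and 6.62 in DMSO siRNF20 and 6.45 and 6.56 in RA siRNF20. The RA difference was 0.05 (SE 0.24, interval -0.50 to 0.60, adjusted p = 0.960) in siLacZ and -0.04 (SE 0.20, interval -0.49 to 0.40, adjusted p = 0.959) in siRNF20 cells. With all 8 arrays the first was -0.57, where the left-out array read 5.57. Its rows were evenly split, 9 lower and 9 higher in siLacZ cells and 10 lower and 8 higher in siRNF20 cells.

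NLRC5 drives transcription of class I heavy chains, B2M and TAP1 where it is present. It had 71 rows, of which 46 were kept and 9 were brighter than the median annotated row. Its value was 5.25 and 5.24 in DMSO siLacZ, 5.20 in RA siLacZ, 5.17 and 5.27 in DMSO siRNF20 and 4.96 and 5.16 in RA siRNF20. The RA arrays lay slightly below the DMSO arrays of the same knockdown, and most of its rows were dimmer than the median annotated row. The RA difference was -0.04 (SE 0.31, interval -0.73 to 0.65, adjusted p = 0.972) in siLacZ and -0.16 (SE 0.25, interval -0.72 to 0.40, adjusted p = 0.858) in siRNF20 cells. The first was 0.11 with all 8 arrays.

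**Figure D4:**
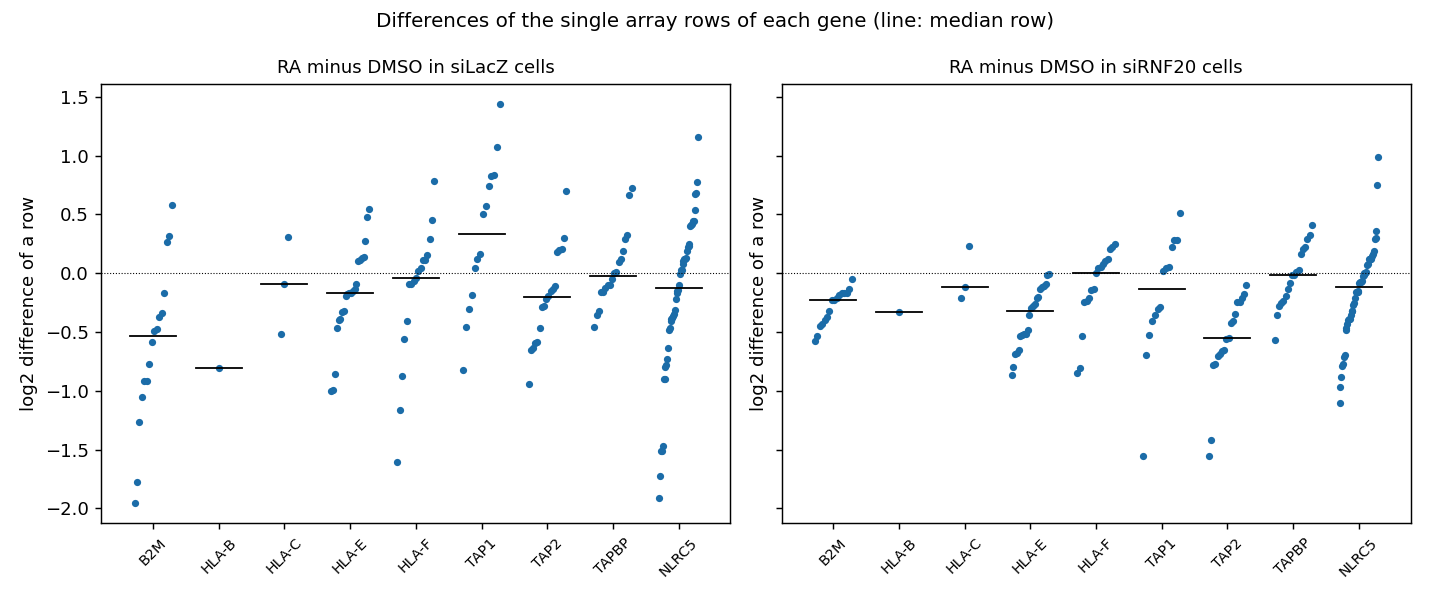
Log2 difference, RA minus DMSO (y axis), of each row kept for the 9 genes (x axis), in siLacZ cells on the left and siRNF20 cells on the right; each point is a row and the black line is the median row. On the right every point of B2M, HLA-E and TAP2 lies below 0, as does the single HLA-B point. On the left B2M has the lowest median row among genes with more than 1 row (-0.54), while the TAP1 median lies above 0.

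Member calls are set here beside the share of all genes called. Whether the members differ from all genes in that share was not tested. In siLacZ cells 1 of 9 members was called, B2M among the lower genes. Of all genes 3.91% were called there, made up of 2.03% of all genes as lower and 1.88% as higher. In siRNF20 cells 0 of 9 were called by limma, and 0 had an unadjusted p below 0.05, against 3.92% of all genes called, 2.13% as lower and 1.79% as higher. The median member difference was -0.25 in siLacZ cells, where that of all genes was -0.05, and -0.28 in siRNF20 cells, where that of all genes was -0.03. With all 8 arrays the order turned in siLacZ cells, with a member median of 0.11 and -0.49 for all genes. In siLacZ cells 7 members (B2M, HLA-B, HLA-C, HLA-E, HLA-F, TAP2 and NLRC5) lay below both DMSO arrays, as 41.9% of all genes did, and 1 (TAP1) lay above both, as 32.1% did. The count of 7 rests on leaving out the GF117 RA siLacZ array, which lay above both DMSO arrays for HLA-B (7.24), HLA-C (9.03), HLA-F (7.34) and NLRC5 (5.51). In siRNF20 cells 6 members (B2M, HLA-E, HLA-F, TAP1, TAP2 and NLRC5) had both RA arrays below both DMSO arrays, as 24.8% of all genes did, and 0 lay above, where 18.1% did.

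In the fit of group means RNF20 knockdown gave no call among the members, of which only B2M had an unadjusted p below 0.05 in DMSO, in RA or for the difference between RA responses. In DMSO 0 of 18732 genes passed limma's test (519 had an unadjusted p below 0.05), so that percent called was 0. In DMSO siRNF20 the B2M value lay above both siLacZ arrays, by 0.53 (SE 0.20, interval 0.09 to 0.97, unadjusted p = 0.0230, adjusted p = 1.00). Within GF117 that gap was 0.32 and within GF120 it was 0.74. It was smaller with the mean of rows (0.25), a median polish (0.20) and the stricter filter on dim rows (0.24). HLA-E (0.20, SE 0.17) and TAP1 (0.36, SE 0.27) also had both siRNF20 arrays above both siLacZ arrays, as 14.6% of all genes did. TAPBP (-0.22, SE 0.20) was the only member with both below, as 15.6% of all genes were. HLA-B, HLA-C, TAP2 and NLRC5 differed by -0.06 to -0.02, and HLA-F by 0.23 (SE 0.21).

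In RA the largest knockdown difference was again that of B2M. Both siRNF20 arrays (7.62 and 7.79) lay above the siLacZ array (6.39), by 1.31 (SE 0.24, interval 0.78 to 1.85), but the adjusted p was 0.132, in a comparison that called 2 genes (0.0107%), both higher. With the GF number as a replicate block B2M was called (1.40, adjusted p = 0.0133), as 1 of 232 genes. It was 3.05 (SE 1.00, adjusted p = 0.546) with all 8 arrays. All of the first 6 B2M rows were higher in the knockdown (0.33 to 0.99, median 0.54), as were the last 5 (1.08 to 2.36, median 1.90). The 5 dim middle rows were lower (median -0.81). HLA-C differed by 0.70 (SE 0.36, adjusted p = 0.676) and HLA-B by 0.42 (SE 0.38, adjusted p = 0.823), and both turned negative with all 8 arrays. TAP2 differed by -0.20 (SE 0.29, adjusted p = 0.903), although 16 of its 18 rows lay lower (median -0.56), where 56.9% of all rows did, and TAP1 by -0.42 (SE 0.33, adjusted p = 0.788). In RA 4 members (B2M, HLA-B, HLA-C and HLA-E) lay above the siLacZ array, as 33% of all genes did, and 4 (TAP1, TAP2, TAPBP and NLRC5) below, as 33.9% did. The RA difference in siLacZ cells, the knockdown difference in RA and the difference between RA responses all use the RA siLacZ array. Their B2M values are therefore not independent. For the difference between RA responses 0 of 18732 genes were called (737 at an unadjusted p below 0.05).

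**Figure D5:**
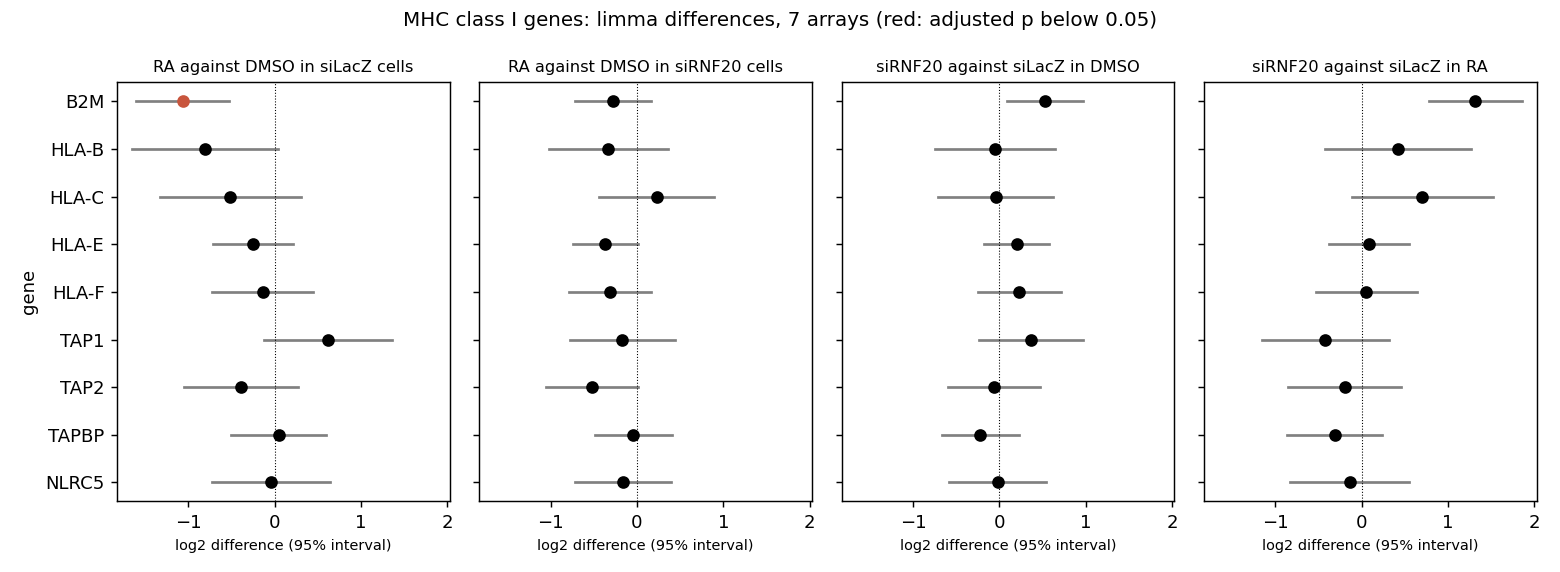
Limma log2 differences (x axis, points) with 95% intervals (grey lines) for the 9 genes (y axis) in 4 comparisons over 7 arrays, with red for an adjusted p below 0.05. Only B2M with RA in siLacZ cells (-1.06) is red, and its RA knockdown interval (0.78 to 1.85) lies above 0 while the adjusted p is 0.132.

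The rest of the pathway was read from lists, with 102 genes measured in all. With RA 7 of them were called in siLacZ cells, where 3.91% of all genes were, and 4 in siRNF20 cells, where 3.92% were. The share of all genes called lower was 2.03% and 2.13%. Relatives of the class I chains, many of them ligands of natural killer cells, had 10 of 13 genes measured, with 1 called higher and 1 lower with RA in siLacZ cells and 2 lower in siRNF20 cells. ULBP3, a ligand of the activating receptor NKG2D, read 5.85 and 5.76 in DMSO siLacZ and 7.13 in RA siLacZ, against 5.88 and 5.98 in DMSO siRNF20 and 5.72 and 6.02 in RA siRNF20. It rose in siLacZ cells by 1.32 (SE 0.27, adjusted p = 0.0253), and that call was lost without DMSO siLacZ GF117 (0.0991) or GF120 (0.105). Its difference was -0.18 with all 8 arrays. The difference between its RA responses was -1.39 (SE 0.34, adjusted p = 0.922). PROCR, the endothelial protein C receptor with a class I-like fold, fell by 1.25 on the log2 scale (SE 0.29, adjusted p = 0.0471) in siLacZ and by 1.10 (SE 0.24, adjusted p = 0.0350) in siRNF20 cells. MICB, another NKG2D ligand, fell by 0.93 (SE 0.21, adjusted p = 0.0387) in siRNF20 cells. Leaving out any 1 of the 4 siRNF20 arrays ended the MICB call and the PROCR call of siRNF20 cells (adjusted p = 0.0533 to 0.290), as did leaving out any of the 4 DMSO arrays for PROCR in siLacZ cells (0.0604 to 0.214). The MICB call was also lost without RA siLacZ GF120 (0.0865), and that of PROCR in siRNF20 cells without either DMSO siLacZ array (0.0629). Over all alternatives run, the ULBP3 call was kept in 11 of 17, PROCR in 8 of 17 (siLacZ) and 6 of 18 (siRNF20), and MICB in 6 of 18. The stricter filter on dim rows moved PROCR to -0.67 and -0.41.

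Among 12 genes of peptide loading and trimming, such as the chaperone calreticulin, the tapasin relative TAPBPL and the aminopeptidases ERAP1 and ERAP2, limma called 0 with RA in either knockdown (1 and 3 had an unadjusted p below 0.05 in siLacZ and siRNF20 cells). The extremes in siLacZ cells were LAP3 (-0.78, SE 0.23, adjusted p = 0.111) and LNPEP (0.48, SE 0.43, adjusted p = 0.674), and the same genes were extreme in siRNF20 cells (-0.50 and 0.91). Of 22 proteasome genes, 3 were called lower with RA in siLacZ cells and 0 in siRNF20 cells, where 1 had an unadjusted p below 0.05. They are constitutive subunits of the core particle. PSMA3 read 8.52 and 8.54 in DMSO siLacZ and 7.06 in RA siLacZ, and fell by 1.47 (SE 0.22, adjusted p = 0.00613). In the siRNF20 arrays it read 8.43 and 8.39 in DMSO and 8.47 and 8.09 in RA. PSMB1 fell by 1.17 (SE 0.25, adjusted p = 0.0357) and PSMA6 by 0.60 (SE 0.13, adjusted p = 0.0414), and both calls were lost without either DMSO siLacZ array (adjusted p = 0.0706 to 0.179). That of PSMA6 was lost without either DMSO siRNF20 array too (0.0800 and 0.0801). Over all alternatives run, PSMA3 kept its call in 15 of 17, PSMB1 in 9 of 17 and PSMA6 in 6 of 17. PSMB1 was -0.62 with the mean of rows, and PSMA6 was -0.33 with the stricter filter. The list's median was -0.25 in siLacZ (-2.03 with all 8 arrays) and -0.22 in siRNF20 cells. PSMB9, an interferon-induced subunit, was the highest of the list in siRNF20 cells at 0.44 (SE 0.32, adjusted p = 0.631), through 1 array that read 6.15 where the other 6 lay between 5.01 and 5.25.

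Factors that act on class I promoters and carry the interferon signal had 25 of 27 genes measured, and limma called 0 with RA in either knockdown (3 and 0 had an unadjusted p below 0.05). The extremes in siLacZ cells were the kinase JAK1 (0.83, SE 0.31, adjusted p = 0.206) and the receptor chain IFNGR2 (-0.59, SE 0.21, adjusted p = 0.192). Of 25 interferon-stimulated genes, 2 were called lower with RA in siLacZ cells and 1 in siRNF20 cells, and none higher. IFITM1, a membrane protein that restricts the entry of viruses, read 10.12 and 10.41 in DMSO siLacZ, 8.34 in RA siLacZ, 10.17 and 10.35 in DMSO siRNF20 and 8.79 and 8.95 in RA siRNF20. In each knockdown the RA side lay wholly below the DMSO side. The same held for 41.9% of all genes in siLacZ and 24.8% in siRNF20 cells. IFITM1 fell by 1.92 (SE 0.19, adjusted p = 0.000638) in siLacZ and by 1.39 (SE 0.15, adjusted p = 0.000972) in siRNF20 cells. Leaving out any single array kept the siRNF20 call, and leaving out any but the GF120 RA siLacZ array kept the siLacZ call. Without that array siLacZ cells have no RA value, so the call could not be tested against its loss. IFITM3 fell by 0.94 (SE 0.20, adjusted p = 0.0301) in siLacZ cells, a call kept in 10 of 17 alternatives. It was lost without DMSO siLacZ GF120 (0.0833), with the mean of rows (0.262), median polish (0.0608), no intensity trend (0.106) and no filter on dim rows, where the difference was -0.58 (0.246). The median of the list was 0.05 in siLacZ and -0.15 in siRNF20 cells.

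Class II genes, which present outside peptides to CD4 T cells, had 8 of 11 members measured. HLA-DPA1 was called lower with RA in siRNF20 cells, by -1.28 (SE 0.24, adjusted p = 0.0167), and differed by -0.62 (SE 0.29, adjusted p = 0.337) in siLacZ cells. Its call was lost without DMSO siRNF20 GF117 (0.0570) or GF120 (0.142), and was kept in 14 of 18 alternatives. Over these 102 genes limma called 0 for RNF20 knockdown in DMSO (2 at an unadjusted p below 0.05), 0 for the knockdown in RA (12) and 0 for the difference between RA responses (5). With all 8 arrays every call in them was lost.

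The genes whose pattern over the 7 arrays was most like that of B2M, among 18731 others, were PCNA, SPATA12, KRTAP13-4, CHML and RTL9. The measure was the root mean square difference of log2 values centred on each gene's own mean, and it was 0.110 for PCNA and 0.148 to 0.167 for the other 4, where B2M itself had an SD of 0.56 over the arrays. PCNA, the sliding clamp of DNA replication, read 8.96 and 8.96 in DMSO siLacZ, 7.95 in RA siLacZ, 9.05 and 9.55 in DMSO siRNF20 and 9.19 and 9.34 in RA siRNF20. Like B2M it was lowest in RA siLacZ and highest in DMSO siRNF20 GF120. SPATA12, KRTAP13-4 and RTL9 were dim, below the median annotated row (6.13) in all 7 arrays. In RA siLacZ, SPATA12 (3.55) and RTL9 (3.31) lay below the cut for dim rows (3.97). The likeness is a description over 7 arrays.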

How the data were processed

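Total RNA of 8 NTera2/D1 cultures was measured on Affymetrix Human Exon 1.0 ST arrays, as the table of probe sets and genes names them. The authors deposited linear intensity values, 1 per row (probe set) and array; their background correction and normalization are not given in the sources used here. Intensities were taken to log2 from the deposited values. Of 1384231 rows, 354600 with 1 gene symbol were used and 14898 with several were left out of tests. Rows with a mean at or below 3.97 (the median row over 7 arrays) were dropped as dim, and each gene took the median of the rows that remained. limma (version 3.58.1, R version 4.3.3, data.table version 1.17.8) fitted 4 group means with an intensity trend to 7 arrays, without the GF117 RA siLacZ array, for 5 contrasts. P-values are two-sided and adjusted by Benjamini-Hochberg over 18732 genes, called below 0.05. They measure the spread between these arrays. With 2 arrays against 2 an exact permutation test cannot go below 0.333. The number of arrays limits precision. Scripts were tested on simulated data. Figures used Python 3.11.15, matplotlib 3.10.9 and pandas 2.3.3.

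Members, lists and the left-out array were chosen with earlier results of these data known. All members are named; from each list, up to 4 called genes of largest difference per contrast, or else the extremes or the count alone; for B2M, the 5 most alike genes. Alternatives covered arrays, row summary, filter, offset, normalization, trend, replicate block and leaving out each array. GF numbers were not taken as pairing: correlations of same-numbered deviations were 0.297 to 0.364, but there are only 2 numbers and the labels do not say what they mark.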

Additional observations from a re-analysis of the deposited data

How the results depend on the processing

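The B2M fall with RA in siLacZ cells was the single call among members (1). That count became 0 with all 8 arrays, the mean of rows, median polish, no filter, an offset of 16 and no intensity trend, and ranged from 0 to 1 when 1 array was left out. Genes called with RA numbered 733 in siLacZ and 734 in siRNF20 cells, against 0 and 0 with all 8 arrays (1510 at an unadjusted p below 0.05 in siLacZ cells), 456 in siLacZ cells with no trend, and 317 to 970 and 324 to 720 when 1 array was left out. The 2 genes called for the knockdown in RA became 0 with all 8 arrays, mean, median polish, no filter, strict filter, offset and quantile normalization, 1 with no trend, 48 with only the arrays compared, and 0 to 2 when 1 array was left out; for the knockdown in DMSO that range was 0 to 1.

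With the GF number as a replicate block, 7 arrays gave 1792 and 1959 genes for RA in siLacZ and siRNF20 cells, 1 and 232 for the knockdown in DMSO and RA, and 4 for the difference between responses. B2M was then called for RA in siLacZ cells (-1.14, adjusted p = 0.00449) and for the knockdown in RA (1.40, 0.0133), which makes 1 member there, and TAPBP with RA in siLacZ cells was -0.030. The block with all 8 arrays gave the same differences as all 8 arrays without it, and 0 calls.

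Signs turned as follows, and the cause was not tested; none of these differences was called except that of ULBP3. With all 8 arrays, with or without the replicate block, RA in siLacZ cells gave 0.56 for HLA-B, 1.13 for HLA-C, 0.18 for HLA-F, 0.11 for NLRC5, -0.57 for TAPBP and -0.18 for ULBP3. The knockdown in RA gave -0.94 for HLA-B, -0.71 for HLA-C, -0.26 for HLA-F, 0.16 for TAP2 and 0.25 for TAPBP, and in DMSO 0.41 for HLA-C. The difference between responses was -0.89 for HLA-B, -1.13 for HLA-C, 0.24 for HLA-E, 0.20 for TAP2 and 0.51 for TAPBP. HLA-C with RA in siRNF20 cells was -0.033 (mean), -0.081 (polish) and -0.21 (no filter), and its knockdown difference in DMSO 0.52, 0.64 and 0.86. With no filter HLA-C was 0.31 with RA in siLacZ cells, and the difference between its responses was -0.53, or -0.054 with polish. B2M with RA in siRNF20 cells was 0.025 with no filter. HLA-F there was 0.082 (no filter) and 0.28 (strict), -0.20 for the knockdown in DMSO (no filter), and 0.051 (mean), 0.24 (no filter) and 0.40 (strict) between responses. NLRC5 between responses was 0.043 (mean), 0.045 (no filter) and 0.025 (polish). For the knockdown in DMSO it was 0.027 (mean), 0.0026 (no filter), 0.26 (strict) and 0.0070 (arrays compared), and in RA 0.070 (mean), 0.018 (polish), 0.047 (no filter) and 0.053 (strict). Under the strict filter TAP1 was 0.15 with RA in siRNF20 cells and 0.34 for the knockdown in RA. TAPBP was -0.012, 0.068 and 0.080 for RA in siLacZ cells, RA in siRNF20 cells and the difference between them, and -0.044 for the first with polish.

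Leaving out 1 array gave ranges across 0. With RA in siRNF20 cells these were -0.21 to 0.67 for HLA-C, -0.34 to 0.12 for TAP1 and -0.12 to 0.030 for TAPBP, which ranged from -0.054 to 0.15 in siLacZ cells. For the knockdown in DMSO they were -0.24 to 0.14 (HLA-B), -0.29 to 0.21 (HLA-C), -0.069 to 0.035 (NLRC5) and -0.34 to 0.22 (TAP2), and in RA -0.039 to 0.15 (HLA-F) and -0.46 to 0.0012 (TAP1). Between responses they were -0.38 to 0.032 (HLA-F), -0.41 to 0.15 (TAP2) and -0.19 to 0.011 (TAPBP). Without the GF120 RA siLacZ array no array of that group is left, so its comparisons have no value there, and fitting only the arrays compared gives no separate value for the difference between responses.

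Limits: RA siLacZ rests on 1 array, HLA-B on 1 row and HLA-C on 3, and near-identical HLA genes can share signal. Signal near background limits TAP1 and NLRC5. Of the 1482 values of single genes, lists or rows under an alternative, 1250 kept direction and side of the threshold. That count is no measure of robustness. It includes fits without an array of a group not compared, which left differences such as B2M with RA in siRNF20 cells at -0.28. It also includes differences that were uncalled throughout.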
